A study of Arabidopsis thaliana with 20 samples.

Results

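SBPASE (AT3G55800) and PRK (AT1G32060) encode the sedoheptulose bisphosphatase and the phosphoribulokinase of the chloroplast, enzymes of the regeneration branch of the Calvin cycle. They were chosen as the rows of the array whose entry in the platform annotation is exactly 1 gene and that gene is SBPASE or PRK. Each gene had 1 such row, probe 1517 for SBPASE and probe 3151 for PRK, so the 2 genes are described out of 692 with a probe of their own and out of 3439 probes in all. The rule did not use any measured value, but the genes were chosen with earlier results of these data known.

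The samples were total RNA from wild-type Arabidopsis thaliana of the ecotype Columbia 0 in both groups. In the normal CO2 group (0d in the titles) the plants stood at a normal CO2 level, and in the low CO2 group (mCO2_4d) they spent the last 96 h at 0.003% CO2 by volume. Each group held 10 array columns of intensity values, 1 for each numbered sample. The labels give no plant age or tissue and do not tie the numbers to separate plants, so a p-value here reflects the variation among these samples alone, and that variation may be technical. Time and CO2 level changed together, and their effects cannot be told apart. In bulk RNA, fewer green cells and less of a transcript per cell cannot be told apart either. None of the 5 root markers and none of the 5 seed markers looked up had a probe of its own, and the labels name no tissue to check. The signal of the photosynthesis genes on probes of their own was above the column median in all 10 averaged pairs for LHB1B2, PSBW, PSBY and AT1G74470, in 8 for PSAN and in none for CHLM and LrgB, which does not settle the tissue.

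In the Calvin cycle, rubisco joins CO2 to ribulose bisphosphate, and most of the triose phosphate made from the product is used to rebuild that acceptor. Sedoheptulose bisphosphatase removes a phosphate from sedoheptulose bisphosphate, a step that commits carbon to regeneration, and phosphoribulokinase uses ATP to make ribulose bisphosphate in the last step. Both enzymes are switched on in the light by thioredoxins of the chloroplast stroma, and phosphoribulokinase is also held inactive in a complex with the small protein CP12 and glyceraldehyde phosphate dehydrogenase. Both are made from nuclear genes and imported into the chloroplast. The comparison asks whether their transcripts differed after days with little substrate for the cycle.

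Column totals were 3495 to 3797 intensity units, and no value of SBPASE or PRK was 0 or at the ceiling just under 100 seen for other probes, in 40 values. In each of the 20 columns the deviation from the group mean was most like that of its neighbour: 1 and 2, 3 and 4, 5 and 6, 7 and 8, 9 and 10. These deviations were taken across the probes with a value above 0 in every column. Each such couple of columns was averaged and counts once, which gives n = 5 averaged pairs per group. Levels are log2 intensities minus the median of their column, and each change is the low CO2 mean less the normal CO2 mean.

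SBPASE signal was lower in low CO2 in most columns, but the difference did not pass the test over all probes. In the deposited intensities, SBPASE ran from 0.453 to 0.672 with a median of 0.565 over the 10 normal CO2 columns. In low CO2 it ran from 0.270 to 0.602 with a median of 0.411. Of the low CO2 columns, 7 of 10 lay below every normal CO2 column and none lay above, and the 3 within the normal range were columns 7, 8 and 10. After centring on the column median the count was 6 of 10. At least 7 columns lay below in 5.61% of the tested probes on the deposited scale, and at least 6 in 6.71% after centring.

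The signal of PRK overlapped more between the groups. Its deposited intensities ran from 0.987 to 1.45 with a median of 1.23 in normal CO2, and from 0.717 to 1.61 with a median of 1.07 in low CO2. In low CO2, 4 of 10 columns (3 to 6) lay below every normal CO2 column, while 2 (7 and 8) lay above every one of them. This pattern on both sides belongs to the deposited scale, where 1.16% of the tested probes had at least 4 columns below and at least 2 above. After centring on the column median, 2 of 10 low CO2 columns of PRK (3 and 4) lay below and none above, and 36.3% of the tested probes had at least 2 below.

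**Figure D1:**
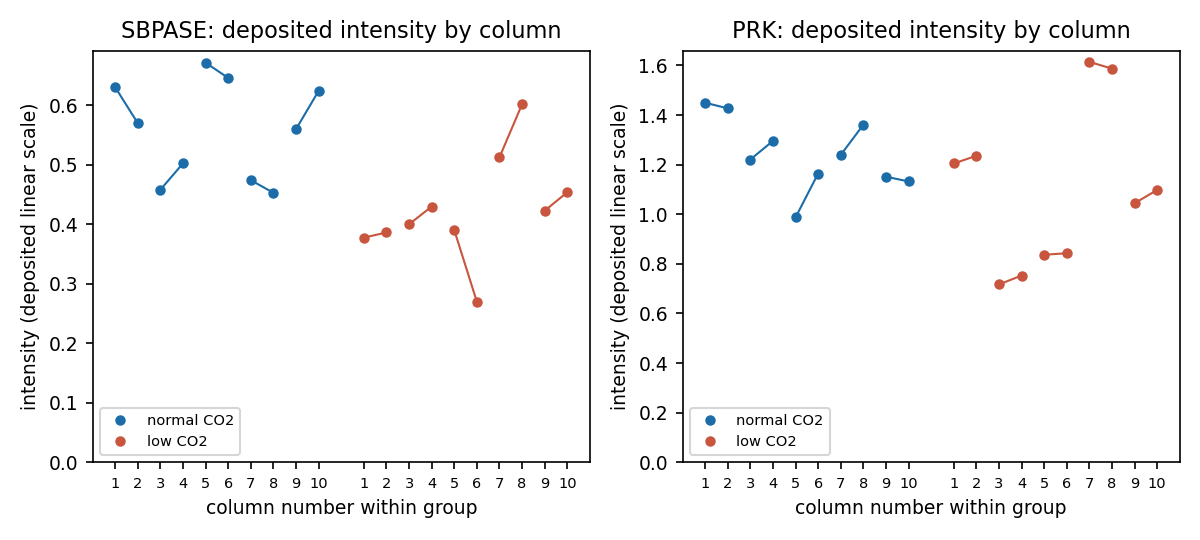
Deposited intensity of SBPASE (left) and PRK (right) on a linear axis from 0, in each of the 10 columns of normal CO2 (blue) and low CO2 (red), with lines joining the neighbouring columns that were averaged. For SBPASE 7 of 10 low CO2 columns lie below all normal CO2 columns, while for PRK the low CO2 columns reach from 0.717 to 1.61, beyond the normal CO2 range at both ends on this scale but not above it after centring.

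On the centred scale, the SBPASE level in normal CO2 was 0.03 in columns 1 and 2, 0.04 in columns 3 and 4, 0.45 in columns 5 and 6, 0.16 in columns 7 and 8, and 0.83 in columns 9 and 10. In low CO2 the same column numbers gave -0.33, -0.20, -0.28, 0.21 and -0.03. All normal CO2 pairs were thus above the column median, and 4 of 5 low CO2 pairs were below it. Those 4 were also below every normal CO2 pair, while columns 7 and 8 of low CO2 were above 3 normal CO2 pairs. Of the 3277 tested probes, 6.65% had at least 4 low CO2 pairs under the whole normal CO2 range.

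SBPASE averaged 0.30 ± 0.34 (SD, n = 5) under normal CO2, against -0.13 ± 0.22 (SD, n = 5) under low CO2. In limma this was a log2 difference of -0.43 ± 0.19 (SE), or 1.35-fold lower, with a 95% interval of -0.83 to -0.03. That interval reaches from 1.78-fold lower to 1.02-fold lower. Its unadjusted p in limma was 0.0386, and Benjamini-Hochberg adjustment over all probes gave p = 0.267. An unadjusted p under 0.05 was reached by 17.4% of the tested probes, and 2.11% passed after adjustment, so SBPASE is 1 of many probes at that level and is not called. By p, SBPASE stood at place 472 of 3277 probes and at place 77 among the 651 tested genes that have their own probe.

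The PRK levels in normal CO2 were 1.29 in columns 1 and 2, 1.43 in columns 3 and 4, 1.16 in columns 5 and 6, 1.64 in columns 7 and 8, and 1.78 in columns 9 and 10. In low CO2 they were 1.34, 0.63, 1.10, 1.74 and 1.26 in the same order of column numbers. Only 2 of 5 low CO2 pairs, columns 3 and 4 and columns 5 and 6, were under the whole normal CO2 range, and no pair was over it. Of the tested probes, 26.0% had at least 2 low CO2 pairs under that range.

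PRK averaged 1.46 ± 0.25 (SD, n = 5) under normal CO2, against 1.21 ± 0.40 (SD, n = 5) under low CO2. The log2 change in limma was -0.25 ± 0.20 (SE), or 1.19-fold lower, with a 95% interval of -0.68 to 0.18. PRK did not pass (limma's unadjusted p = 0.235, adjusted p = 0.555). The interval covers changes from 1.60-fold lower to 1.13-fold higher, and the change measured for SBPASE lies within it. The low CO2 pair of columns 3 and 4 weighed most on this value: without it the log2 change was -0.10, whereas leaving out low CO2 columns 7 and 8 gave -0.38.

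**Figure D2:**
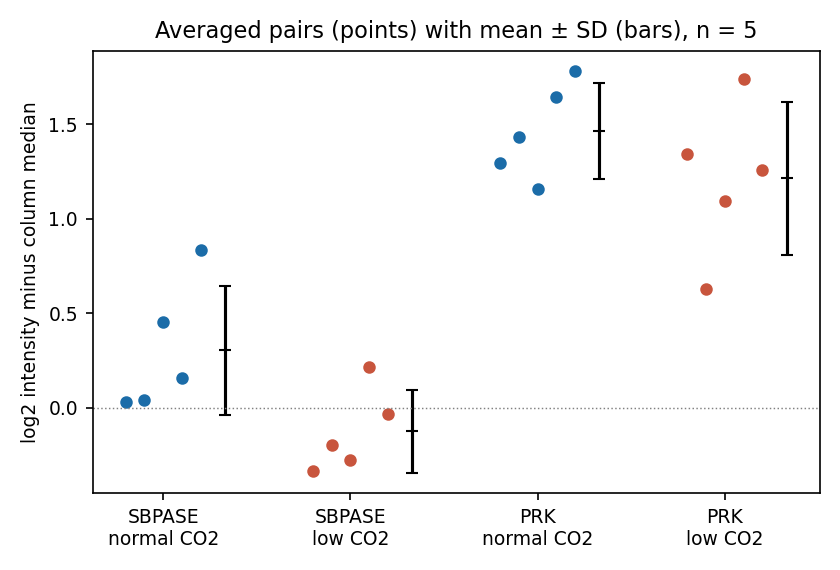
Centred log2 levels of SBPASE and PRK in the 5 averaged pairs of each group (points, ordered by column number), with the mean and SD beside them. The SBPASE means are 0.30 and -0.13 and the PRK means 1.46 and 1.21 in normal and low CO2, and the groups overlap for both genes.

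The spread of PRK in low CO2 lay between averaged pairs and hardly within them. Neighbouring columns of PRK differed by 0.01 to 0.10 in low CO2, a within-pair SD of 0.04, whereas the averaged pairs spanned 1.11 with an SD of 0.40. In normal CO2 the neighbours differed by 0.02 to 0.22 and the averaged pairs had an SD of 0.25. Whether PRK varied more in low CO2 was not tested.

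SBPASE was arranged like PRK in normal CO2 and otherwise only in low CO2. On the centred scale its averaged pairs had an SD of 0.34 for normal CO2, against 0.22 for low CO2, beside within-pair SDs of 0.09 and 0.20. The wider normal CO2 spread was absent from the deposited intensities, whose SDs over single columns were 0.083 (normal) and 0.088 (low). The column medians that centring subtracts ran from -1.59 to -0.77 (normal) and from -1.35 to -1.05 (low). Whether centring made the spread wider was not tested. In normal CO2 the neighbouring columns of SBPASE differed by 0.05 to 0.16. In low CO2 the neighbours differed by 0.05 to 0.54, the widest gap being between columns 5 and 6, at deposited intensities of 0.390 and 0.270. The residual SD of the fit was 0.29 for SBPASE and 0.34 for PRK, beside a median of 0.37 over all tested probes.

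A rank within the column does not depend on how columns were scaled. SBPASE stood between percentiles 51.5 and 72.0 of its column in normal CO2 (median 56.5) and between 42.2 and 60.3 in low CO2 (median 50.6). PRK stood between percentiles 76.7 and 84.6 in normal CO2 (median 82.1) and between 64.5 and 85.9 in low CO2 (median 77.2). The overlap of the groups was therefore also present in the ranks. Percentiles describe brightness of a probe, not the amount of a transcript.

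The ratio of SBPASE to PRK signal within an averaged pair tests whether the 2 genes changed by different amounts, without any column scaling. The log2 ratio was -1.26, -1.39, -0.70, -1.49 and -0.95 in normal CO2 and -1.68, -0.83, -1.37, -1.53 and -1.29 in low CO2, in order of column number. It averaged -1.16 ± 0.33 under normal CO2, against -1.34 ± 0.32 under low CO2 (SD, n = 5 each). The change of SBPASE was 0.18 below that of PRK (difference -0.18, 95% interval -0.67 to 0.32). A two-sided exact permutation test over all 252 splits of the averaged pairs gave p = 0.373, and p = 0.81 after adjustment over the 15 ratios tested. Dropping normal CO2 columns 5 and 6 gave a difference of -0.07, and in the low CO2 group dropping 1 and 2 gave -0.09 and dropping 3 and 4 gave -0.31. The interval leaves room for a difference of either sign, so neither a shared change nor a different one was shown.

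Over the 10 averaged pairs the levels of SBPASE and PRK had a Pearson's r of 0.58 (permutation p = 0.0798) and a Spearman's rho of 0.59 (permutation p = 0.0808); both adjusted permutation p-values were 0.0808 over these 2 measures. The 2 pairs farthest from the SBPASE median were normal CO2 columns 5 and 6 and columns 9 and 10. Without them r was 0.69 (permutation p = 0.04998) and rho 0.74 (permutation p = 0.0449) over 8 pairs, both unadjusted. In deviations from the group means r was 0.47 (permutation p = 0.168). Without normal CO2 columns 5 and 6 alone it was 0.71 (permutation p = 0.0416). The relation did not pass over all pairs, and both values of a point come from the same columns, so an effect of the column on many probes can enter it.

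**Figure D3:**
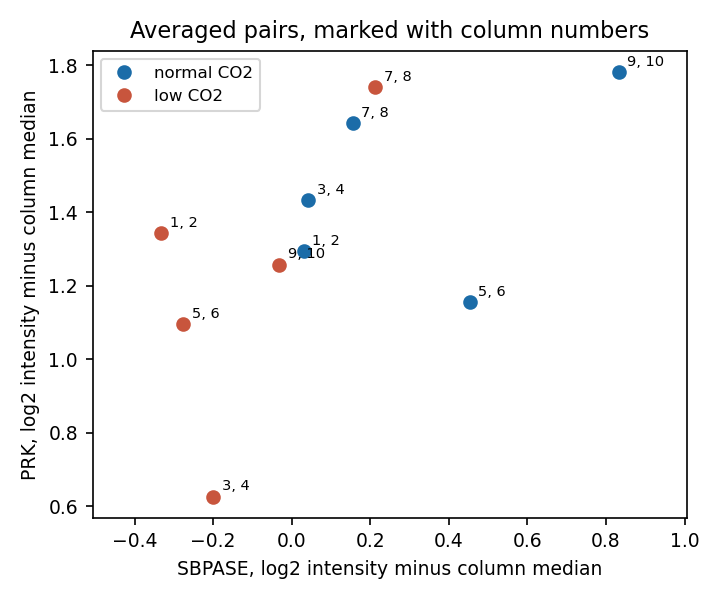
Centred log2 level of PRK against that of SBPASE in the 10 averaged pairs, marked with their column numbers and coloured by group (blue normal CO2, red low CO2). Columns 7 and 8 of low CO2 hold the highest level of both genes in that group, and Pearson's r over all pairs is 0.58.

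Of the 24 genes of the Calvin cycle list, SBPASE and PRK were the 2 with a probe of their own. A further 2 probes are tied to a gene of the list together with another gene and are not named. Both measured members had a change below 0, with a median of -0.34, and neither passed, while 1.74% of the tested probes passed as lower. Over all tested probes 48.7% of changes were below 0 and the median change was 0.01. Among genes with a probe of their own the median was 0.06. The genes for rubisco subunits, CP12 and glyceraldehyde phosphate dehydrogenase are not analysed here.

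Of the thioredoxin system of the chloroplast stroma, 2 of 9 listed genes had a probe of their own. Neither passed, and of all tested probes only 2.11% did. NTRC, a thioredoxin reductase of the plastid that draws on NADPH, had a value of -0.06 ± 0.21 on the log2 scale (SE; adjusted p in limma 0.912). For AT2G04700 the value was -0.19 ± 0.16 (SE; adjusted p in limma 0.573). Their intervals overlap those of SBPASE and PRK, and the differences were not tested.

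Of the 7 photosynthesis genes compared, LHB1B2 differed most in its change from SBPASE and PRK. Neither ratio passed after adjustment, though both had the smallest p that the test can give. LHB1B2, a gene for a chlorophyll-binding protein of the photosystem II antenna, was 6.86-fold lower in low CO2 (limma's adjusted p = 0.000361), and signal from antenna genes of nearly the same sequence cannot be told apart from it. Relative to LHB1B2, the signal of SBPASE was 2.35 higher in low CO2 on the log2 scale (95% interval 1.58 to 3.05), from a log2 ratio of -3.69 ± 0.50 to -1.33 ± 0.50 (SD, n = 5 each). Relative to LHB1B2, PRK was 2.53 higher (95% interval 1.61 to 3.43), from -2.53 ± 0.51 to 0.00 ± 0.63 (SD, n = 5 each). In both ratios the 5 low CO2 pairs were all above the normal CO2 range. LHB1B2 itself had all 5 low CO2 pairs below its normal CO2 range, so this separation is not particular to SBPASE or PRK. How many probes have all 5 low CO2 pairs below was not counted, but 6.65% of the tested probes had at least 4 below. For ratios no such share was counted. The exact permutation p was 0.00794 for each, the smallest that 5 against 5 can give, and 0.0595 after adjustment over 15 ratios. The fall of LHB1B2 was known from earlier results of these data when the ratios were chosen.

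Relative to PSAN, a photosystem I subunit of the thylakoid lumen, SBPASE was 0.96 higher in low CO2 (95% interval -0.09 to 1.99) and PRK 1.14 (95% interval -0.13 to 2.43). The exact permutation p was 0.0794 for both, and 0.298 after adjustment. PSAN itself had a log2 change of -1.39 ± 0.38 (SE) and did not pass (limma's adjusted p = 0.0835).

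The remaining genes compared lay closer to SBPASE and PRK. PSBW and PSBY, small membrane subunits of photosystem II, had log2 changes of -0.55 and -0.34. CHLM, the methyltransferase of magnesium protoporphyrin, had one of -0.50, and AT1G74470, geranylgeranyl reductase of chlorophyll synthesis, one of -0.32. LrgB, also known as PLGG1, carries glycolate and glycerate across the chloroplast envelope in photorespiration and had a value of -0.48 ± 0.23 (SE; adjusted p in limma 0.312). None of these 5 genes passed, and of all tested probes only 2.11% did. In all 12 ratios of SBPASE or PRK to a gene other than LHB1B2, the 95% interval of the difference included 0, with adjusted exact permutation p-values of 0.298 to 0.81.

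**Figure D4:**
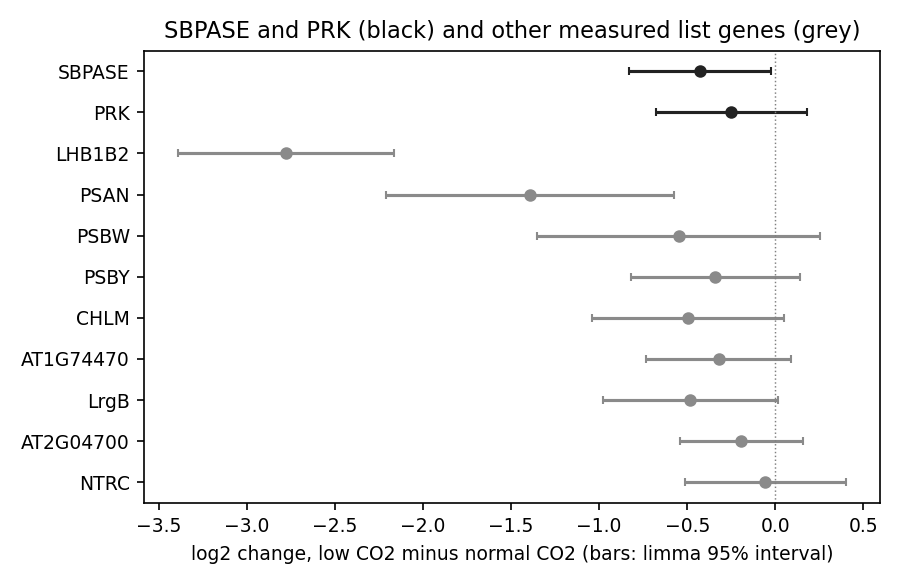
Log2 change from normal to low CO2 with limma's 95% interval for SBPASE and PRK (black) and for the measured genes of the photosystem, chlorophyll synthesis, photorespiration and thioredoxin lists (grey). All estimates lie below 0, and LHB1B2, at -2.78, lies apart from SBPASE at -0.43 and PRK at -0.25.

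LrgB is also a neighbour of PRK on the chromosome, 2 genes away in the TAIR10.1 annotation, and the only one with a probe of its own among the 3 nearest genes on either side of PRK. The change of PRK was 0.23 above that of LrgB (95% interval -0.46 to 0.76, exact permutation p = 0.484). In the low CO2 group, dropping columns 3 and 4 gave 0.49, dropping 7 and 8 gave 0.13 and dropping 9 and 10 gave 0.11, and cyclic loess gave 0.040. The log2 ratio of PRK to LrgB averaged 2.74 ± 0.12 under normal CO2, against 2.97 ± 0.63 under low CO2 (SD, n = 5 each). In low CO2, columns 3 and 4, at 1.92, carried most of this SD, which was 0.27 without them. The ratio of PRK to AT1G74470 had SDs of 0.14 and 0.70, and no difference in spread was tested. The annotated span of PRK overlaps that of its next gene, NSI, and which part of PRK the probe covers was not known here. None of the 6 genes nearest to SBPASE had a probe of its own.

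The genes whose levels were most like those of SBPASE over the 10 averaged pairs, out of 627 genes with a value in every pair, were AT4G31930 (Pearson's r = 0.84), AT4G13220 (0.84) and AT4G12740 (0.83). For PRK they were AT1G24310 (0.92), AT1G62780 (0.83) and AT1G06730 (0.80). The median r over the genes was -0.04 for SBPASE and -0.07 for PRK. None of these 6 genes passed the test between the groups, which only 2.11% of all tested probes passed. All of these correlations share the same columns and are descriptions.

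The 7 photosynthesis genes stood nearer to SBPASE than to PRK in this ordering. Their r with SBPASE was 0.44 (AT1G74470, place 92) to 0.71 (LHB1B2, place 13). With PRK their r ranged from -0.03 (AT1G74470, place 295) to 0.56 (PSBY, place 42). SBPASE itself stood at place 33 in the order of likeness to PRK, and PRK at place 40 in the order of likeness to SBPASE. Part of these values comes from the difference between the groups: in deviations from the group means, the r of LHB1B2 was 0.40 with SBPASE and 0.20 with PRK. Whether the order differs between the 2 genes was not tested.

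Both genes kept a change below 0 in each of 23 other ways of fitting the comparison. The replicate block, the random block, 20 separate columns, dropping the dimmest probes and both eBayes variants left the estimates unchanged. Those settings do not test the sign. The log2 change of SBPASE ran from -0.51 to -0.30 and that of PRK from -0.38 to -0.10. For PRK the 95% interval included 0 in all 23, and for SBPASE in 10 of them. SBPASE passed in 1 of them, when the 20 columns entered singly (adjusted p in limma 0.029), which treats neighbours as if they were independent and called 18.0% of the probes. With neighbouring columns as a random block it did not pass (limma's adjusted p = 0.203, 5.68% of probes called). The probe number of PRK leaves 1 when divided by 6. That class held 24 of the 57 falls among 570 tested probes and had a median change of -0.06. LHB1B2, PSAN, PSBW and NTRC are in the same class. The number of SBPASE leaves 5, a class with 13 of the falls among 591 tested probes and a median change of 0.02. Over all 3277 tested probes, 1.74% passed as lower. Centring within such classes gave PRK a change of -0.23 and SBPASE one of -0.40.

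**Figure D5:**
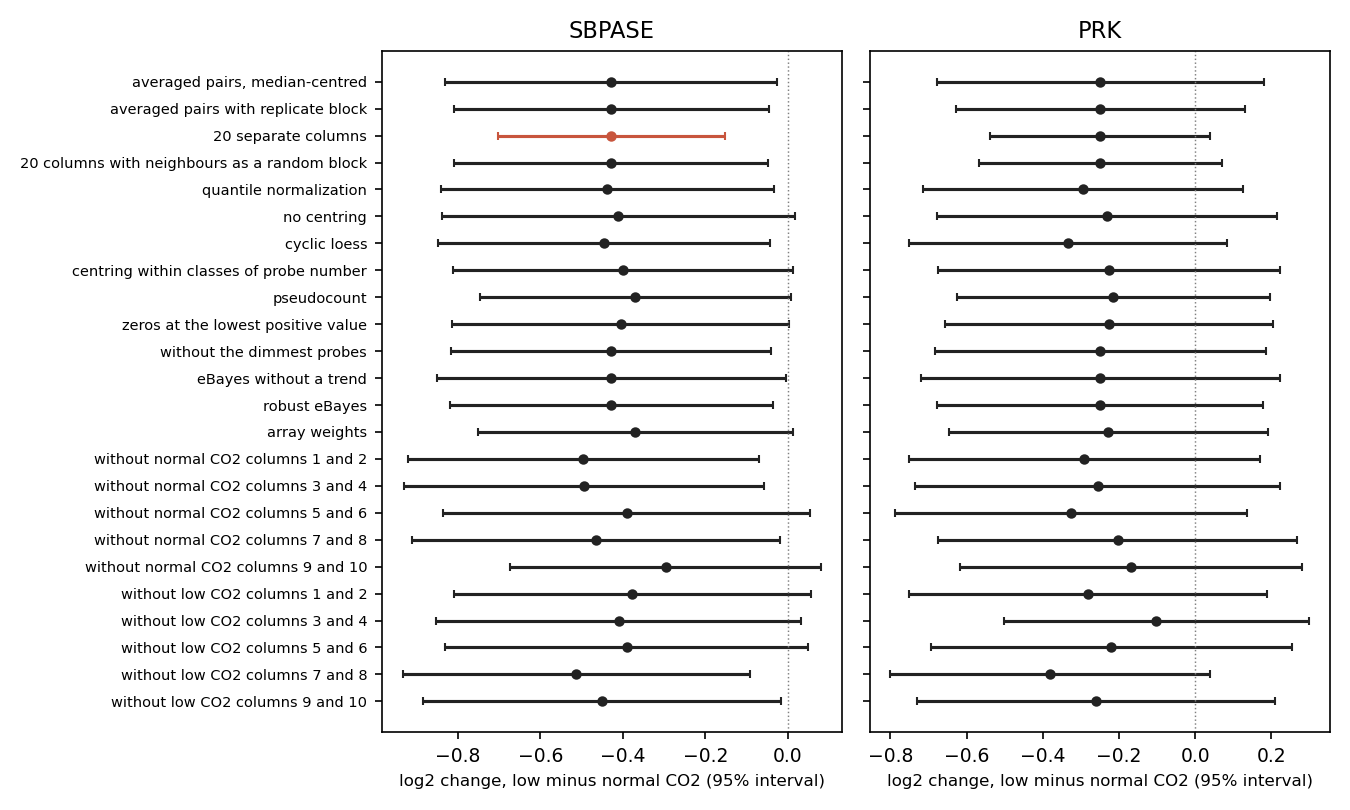
Log2 change of SBPASE (left) and PRK (right) with 95% intervals under averaged, median-centred pairs (top row) and 23 other settings, red where the adjusted p was under 0.05. Every estimate lies below 0, and only SBPASE with 20 separate columns is red.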

How the data were processed

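The deposited table gives a linear intensity for each probe in each sample. No source used here says how the authors corrected background or scaled the values. The genome build of the array is unknown too, and coordinates are left out. Values of 0 (4.77% to 6.48% of a column) were treated as missing. Positive values were log2-transformed and centred on the column median, since medians ran from -1.59 to -0.77. Of 692 probes with 1 gene, 690 matched the reference table (TAIR10.1).

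Probes with values in at least 3 averaged pairs per group, 3277 in all, were tested with limma 3.58.1 (lmFit, eBayes with a trend; R 4.3.3) at a Benjamini-Hochberg adjusted p of 0.05. Ratios between genes were tested with two-sided exact permutation tests whose inversion gave the intervals, and correlations with 100000 permutations (scipy 1.17.1). The code was tested on simulated data.

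Averaging neighbours rests on the columns' correlations, not on the labels (r between normal CO2 neighbours 0.43 to 0.90, between low CO2 neighbours 0.33 to 0.63). Members, lists and tests were chosen with earlier results of these data known. Named genes were the members, the measured genes of the lists, measured chromosomal neighbours, and the 3 genes most correlated with each member. The number of arrays limits the precision; the median SE over all probes was 0.23.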

Additional observations from a re-analysis of the deposited data

Results flagged for a closer look

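Among the 6 groups of 5 averaged pairs examined (SBPASE, PRK and their ratio in each CO2 level), no pair lay far enough from the others to stand out by Dixon's test.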

How the results depend on the processing

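The log2 change of SBPASE kept its direction in 23 of 23 alternatives, some of which cannot move it, and its side of the threshold in 22. With 20 separate columns it was -0.43 and passed. Leaving out 1 averaged pair gave -0.51 to -0.30. PRK kept both in all 23. Their difference, -0.18, kept its sign in 17 of 17, without a pass, at -0.31 to -0.066 without 1 pair. The replicate block, 20 separate columns and zeros at the lowest positive value could not move this difference. Same-numbered averaged pairs did not deviate together throughout (r -0.07 to 0.39, above 0.1 in 3 of 5), so the numbers were not taken to pair the samples. The replicate block left the changes at -0.43 and -0.25, with limma's adjusted p of 0.204 and 0.446, and called 89 probes. For ratios, 5 same-numbered differences cannot give an exact p below 0.0625.

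The count of 69 probes past the threshold was 589 with 20 separate columns, 186 with the random block, 30 with zeros at the lowest positive value, 34 with eBayes without a trend, 20 at a threshold of 0.01 and 25 to 123 without 1 averaged pair. With 20 separate columns, 4 ratios to other genes passed, against 0 of 14 with averaged pairs. With averaged pairs both ratios to LHB1B2 already had the smallest possible exact permutation p, which became 0.0595 after adjustment over the 15 ratios. No wider separation of the groups could have lowered that unadjusted p. The correlation of SBPASE and PRK was 0.55 with 20 separate columns and 0.41 to 0.71 without 1 pair; leaving out pairs was added for it after the data were seen.

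PRK relative to LrgB, 0.23, was 0.094 with quantile normalization, 0.040 with cyclic loess, 0.14 with the pseudocount and 0.11 to 0.49 without 1 pair. Ratios near 0 changed sign. SBPASE relative to LrgB was -0.050 with quantile normalization, -0.072 with cyclic loess and -0.013 with the pseudocount of 0.0403, and -0.085 to 0.19 without 1 pair. SBPASE relative to CHLM was -0.028 with cyclic loess and -0.088 to 0.20 without 1 pair. Without 1 pair SBPASE ran from -0.028 to 0.32 relative to PSBW and from -0.21 to 0.040 relative to PSBY, and PRK from -0.030 to 0.25 relative to PSBY and from -0.18 to 0.30 relative to AT1G74470. The cause of these moves was not tested.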
